A study of Mus musculus with 20 samples.

Results

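Wild-type bone marrow-derived macrophages (BMDMs) exposed to the protein-enriched fraction (ProteinFx) of airway fluid were compared with BMDMs exposed to the extracellular vesicle-enriched fraction (EVFx) of the same kind of fluid. Both fractions came from the bronchoalveolar lavage fluid (BALF) of RNY1+/+ mice with ovalbumin (OVA)-induced airway inflammation, so neither genotype nor inflammation of the source differed between the groups. Each group had 4 libraries of the 20 in the series. Of 78409 genes in the table, the 10443 whose counts scaled to the library total (CPM) averaged 3 or more in the 8 libraries were compared.

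The BMDMs were grown from marrow of female C57BL/6J mice with L929 fibroblast-conditioned medium, seeded at 200000 cells per well, and used on day 7. EVFx was dosed by particles (35000000 per µL) and ProteinFx by protein (0.75 µg per µL). The scales differ, so the kind of fraction and its dose cannot be told apart in any value below. Both fractions were stored for 5 days at 4 °C before use. The other groups were BMDMs given PBS, and BMDMs given EVFx or ProteinFx of RNY1-/- mice, which carry a CRISPR deletion of the RNY1 gene and had the same OVA-induced inflammation. The macrophages themselves were wild-type in all 20 libraries. The labels name 1 batch and leave unstated if a group's 4 libraries stem from different mice, fluid pools or wells, so p-values measure the spread between these libraries, which may be technical.

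Extracellular vesicles are membrane-bound particles that cells shed into body fluids. The soluble proteins of airway fluid include cytokines, lipoproteins and immunoglobulins. Macrophages take up both and change their gene expression in response. Well known macrophage programmes include the interferon response, NF-kB-driven inflammation, alternative (type 2) activation by IL-4 and IL-13, and the antioxidant response driven by the transcription factor NRF2.

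Total counts were 4994483 to 8277366 in the EVFx libraries and 3945372 to 5763532 in the ProteinFx libraries, and mitochondrial transcripts took 3.80% to 4.99% and 4.75% to 5.33% of them. All 12 macrophage markers examined passed the limit of 3 CPM, with summed levels of 12950 to 13920 CPM under EVFx and 17880 to 18970 CPM under ProteinFx. B cell markers (8 genes, 3.87 to 4.63 CPM summed under EVFx and 2.26 to 3.80 under ProteinFx) and erythroid markers (6 genes, at most 0.259 CPM summed) were close to 0. Summed neutrophil markers (12 genes) lay at 176 to 232 CPM under EVFx and 254 to 376 under ProteinFx. Of the T cell markers (10 genes) Il7r alone passed the limit, at 163 ± 15.5 CPM (SD, n = 4) and 309.7 ± 32.5 CPM (SD, n = 4). Epithelial markers (14 genes) summed to 5.32 to 11.01 CPM and 11.9 to 30.5 CPM, and the eosinophil markers (7 genes) to 0.801 to 1.47 and 14.7 to 21.4 CPM, nearly all of it Ccr3. The fibroblast markers (7 genes) summed to 22.9 to 41.1 and 18.9 to 30.7 CPM, and the alveolar macrophage markers (10 genes) to 192 to 396 and 100.2 to 144 CPM. The part that other cells had in the results below was not tested.

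Of the genes compared, 13.5% differed between the fractions. Under ProteinFx 701 genes were higher and 712 lower than under EVFx, with an adjusted p below 0.05 and an absolute log2 fold change above 1 (edgeR quasi-likelihood test, Benjamini-Hochberg). In bulk RNA, a change in the number of expressing cells and a change in RNA per cell cannot be told apart. These differentially expressed genes (DEGs) were 6.71% and 6.82% of the genes compared. By adjusted p alone 3247 genes (31.1%) were higher and 3361 (32.2%) lower. Most differences were small, since the median absolute log2 fold change was 0.44, the 90th percentile 1.12 and the 99th 2.71. A log2 fold change above 2 was reached by 119 higher and 107 lower DEGs, and one above 3 by 43 and 31. The libraries of the groups did not overlap in 1354 of the 1413 DEGs. Over all genes compared, ProteinFx lay above EVFx without overlap for 27.1% and below for 27.9%. Protein-coding genes made up 1194 of the DEGs and long noncoding RNAs 112. In 632 of the DEGs at least 1 library held a fractional count, the mark of reads shared with another locus, and the share of such reads in a gene cannot be read from the table.

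**Figure D1:**
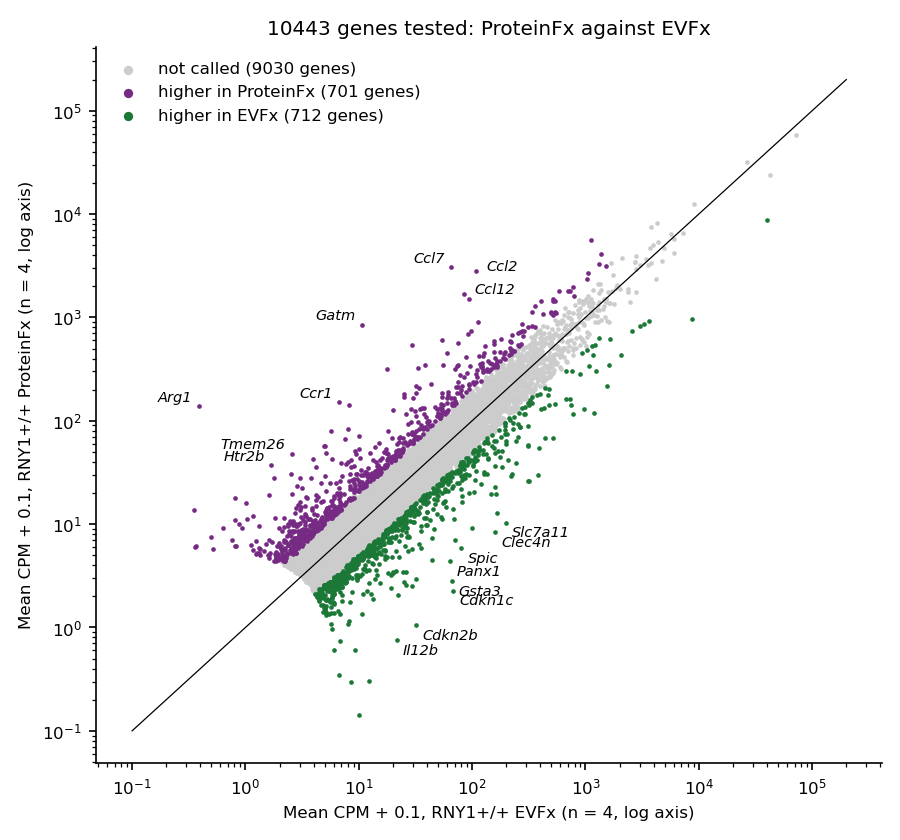
Mean CPM under RNY1+/+ EVFx (x axis) against mean CPM under RNY1+/+ ProteinFx (y axis) for 10443 genes, both on log axes with 0.1 CPM added; the line marks equal levels. Purple points are the 701 genes higher under ProteinFx and green points the 712 higher under EVFx, and the 16 genes with the largest rises and falls are named.

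Levels under PBS show where each fraction stood relative to untreated cells. They are given side by side, since a comparison of each fraction with PBS shares its PBS libraries with the other. Among the genes higher under ProteinFx, the PBS mean lay below both fractions for 186, between them for 337 and above both for 178. Among those lower under ProteinFx, it lay below both for 125, between them for 373 and above both for 214. On a log2 scale (0.5 CPM added) PBS was nearer to EVFx for 330 of the higher and 440 of the lower DEGs.

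Arg1 had the largest rise of all named genes. It encodes arginase 1, which splits arginine into ornithine and urea and marks alternatively activated macrophages. Its CPM were 0.646, 0.375, 0 and 0.121 in the EVFx libraries and 146, 149, 144 and 121 in the ProteinFx libraries, against 0.615, 1.39, 0.915 and 0.712 under PBS. Only 9 reads of Arg1 were counted over the 4 EVFx libraries, against 2618 under ProteinFx, a ratio of 446 after scaling to depth (95% exact interval 235 to 977, counting error only). The ProteinFx libraries stood far above both other groups, whose ranges overlapped slightly.

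Gatm, which encodes the first enzyme of creatine synthesis, reached 730.4, 971, 804 and 903 CPM under ProteinFx and 14.2, 12.3, 8.61 and 7.25 CPM under EVFx. The log2 fold change of Gatm was 6.32 ± 0.18 (SE, adjusted p = 2.55e-12, edgeR). The PBS libraries, at 114, 98.2, 163 and 112 CPM, lay between the fractions, and every EVFx library was below and every ProteinFx library above them. Htr2b, a serotonin receptor, followed the same order with 1.58 ± 0.586 CPM under EVFx, 10.1 ± 2.54 CPM under PBS and 37.0 ± 7.12 CPM under ProteinFx (log2 fold change 4.54 ± 0.22). Tmem26, a transmembrane protein, was at 2.46 ± 0.980 CPM under EVFx and 2.75 ± 0.976 CPM under PBS but at 48.0 ± 7.21 CPM under ProteinFx (4.22 ± 0.19). Its EVFx and PBS libraries overlapped, while all ProteinFx libraries stood above both.

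**Figure D2:**
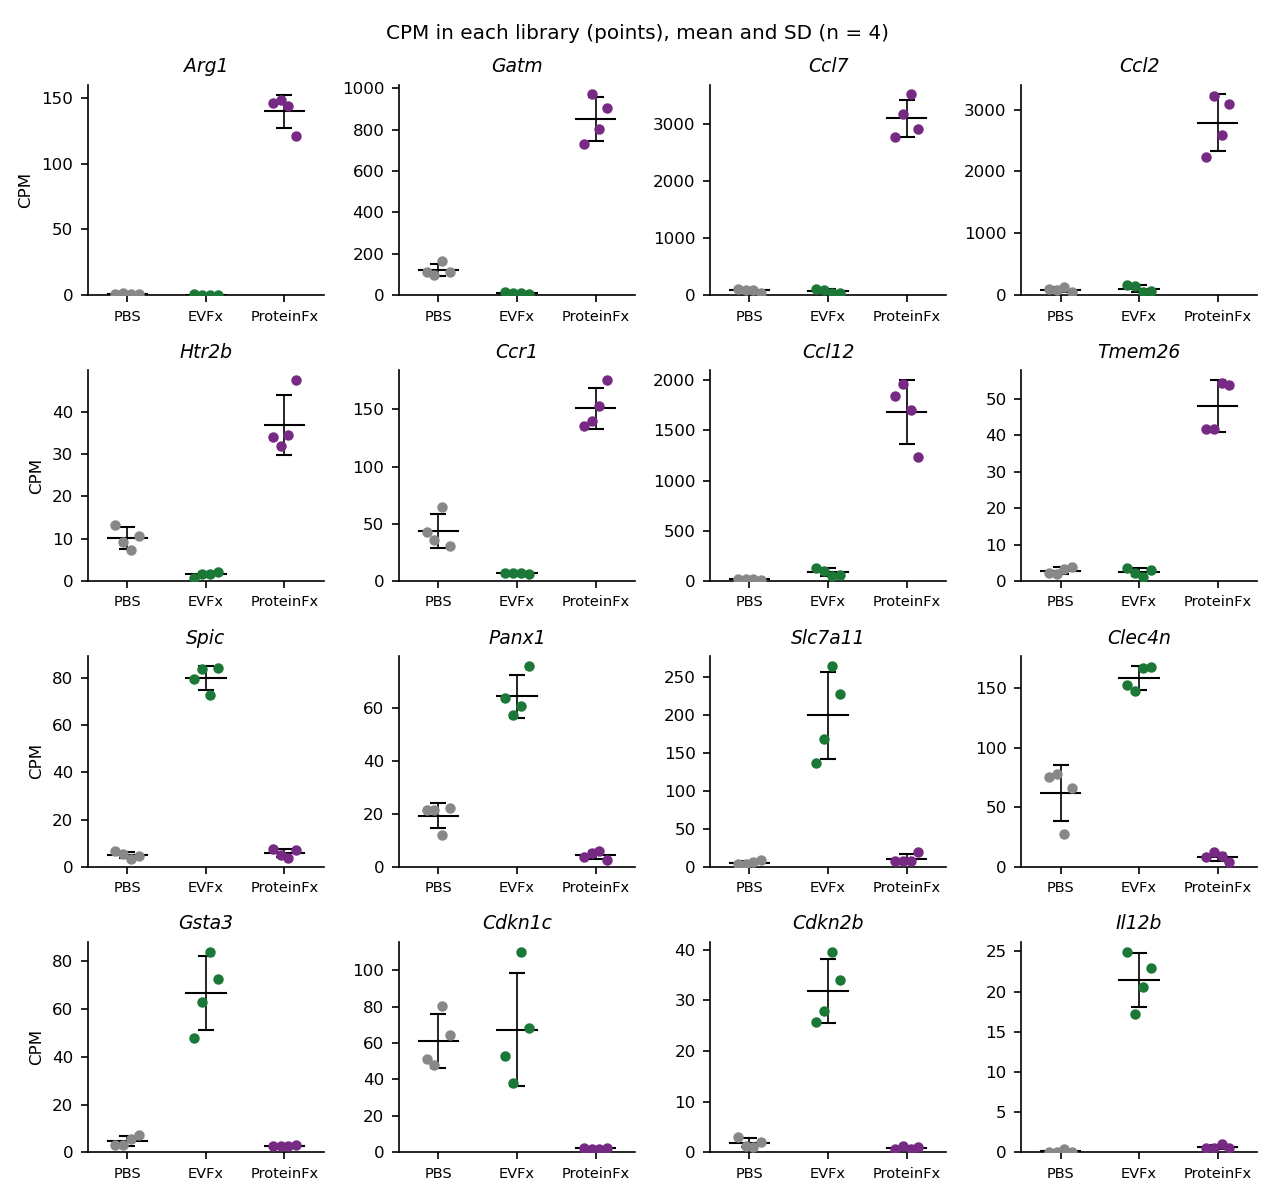
CPM of the 8 genes with the largest rises and the 8 with the largest falls in each library of the PBS (grey), EVFx (green) and ProteinFx (purple) groups, with mean and SD (n = 4 per group). The ProteinFx libraries lie above both other groups for Arg1, Ccl7, Ccl2 and Ccl12 and between PBS and EVFx, or among the PBS libraries, for Spic, Slc7a11 and Il12b, while for Cdkn1c PBS and EVFx lie together above ProteinFx.

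Chemokine genes of both classes were found on either side. CC chemokines chiefly draw monocytes, eosinophils and lymphocytes, while the CXC ligands Cxcl1, Cxcl2 and Cxcl3 draw neutrophils. Of 11 CC ligands compared 7 were higher and 2 lower under ProteinFx (median log2 fold change 1.30), and of 8 CXC ligands 2 were higher and 4 lower (median -0.91), against 6.71% and 6.82% of all genes. These classes were formed after the values were seen, and the difference between them was not tested. Ccl24 and Cxcl11 averaged below 3 CPM under EVFx, and Cxcl1 under ProteinFx, so each could count in 1 direction only. Ccl7 had 103, 87.7, 30.6 and 38.7 CPM under EVFx and 2775, 3174, 3512 and 2908 CPM under ProteinFx, with PBS at 105, 90.5, 88.7 and 43.6 CPM. The log2 fold change of Ccl7 was 5.56 ± 0.31 (SE, adjusted p = 2.53e-09, edgeR). Ccl2, the main monocyte attractant, had 161, 147, 54.9 and 65.4 CPM under EVFx and 2232, 3224, 2594 and 3097 CPM under ProteinFx (log2 fold change 4.70 ± 0.30). EVFx libraries of both genes overlapped the PBS libraries, and every ProteinFx library exceeded them. In both genes EVFx replicates 1 and 2 stood above replicates 3 and 4.

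Ccl12 (log2 fold change 4.29 ± 0.27) and Ccl8 (4.01 ± 0.26) rose in the same comparison. Ccl12 went from 85.0 ± 40.6 CPM to 1683 ± 317 CPM, and Ccl8 from 93.4 ± 38.1 CPM to 1516 ± 408 CPM. The eosinophil attractant Ccl24 was at 0.835 ± 0.548 CPM under EVFx and 9.08 ± 2.67 CPM under ProteinFx. Ccl9 and Ccl6 rose less (1.30 ± 0.087 and 1.17 ± 0.14). In contrast Ccl5 fell from 3642 ± 744 CPM to 913 ± 214 CPM (-1.99 ± 0.17) and Ccl3 from 761 ± 67.5 CPM to 304 ± 43.6 CPM (-1.32 ± 0.11). The closely related Ccl4 did not pass the fold limit (0.21 ± 0.13).

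Of the 6 chemokine receptor genes compared 5 were higher under ProteinFx, against 6.71% of all genes. Ccr2 and Ccr3 averaged below 3 CPM under EVFx, so they were compared only through ProteinFx and could only count as higher. Ccr1 had 6.85, 6.63, 7.21 and 5.68 CPM under EVFx, 42.8, 35.8, 64.5 and 30.6 under PBS and 135, 139.8, 153 and 176 under ProteinFx (log2 fold change 4.53 ± 0.13). The 3 groups did not overlap, with PBS in the middle. Ccr2, the receptor of Ccl2, was low throughout, at 1.06 ± 0.659 CPM under EVFx and 5.53 ± 1.15 CPM under ProteinFx. The receptor gene that was no DEG was Ccrl2 (-0.70 ± 0.11).

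The 3 neutrophil attractants were higher under EVFx. Cxcl2 had 388, 418, 658 and 602 CPM under EVFx, 50.7, 52.97, 60.6 and 111 under ProteinFx and 4.51, 5.25, 4.35 and 5.16 under PBS. The log2 fold change of Cxcl2 was -2.89 ± 0.24 (SE, adjusted p = 1.32e-07, edgeR). ProteinFx libraries were thus below every EVFx library and above every PBS library. Cxcl1 fell from 25.9 ± 7.53 CPM to 2.48 ± 0.83 CPM (log2 fold change -3.37 ± 0.27) and Cxcl3 from 148 ± 69.9 CPM to 19.5 ± 10.2 CPM (-2.88 ± 0.34).

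Promoter sequences of Cxcl1 and Cxcl2 are shown because these neighbouring genes on chromosome 5 moved together and hold the same NF-kB motif, GGGA and TTCC with 2 bases between them, searched on both strands (capitals). The RefSeq windows run from 250 bases before to 50 after the start site (GRCm38.p6, a different build from the GRCm39 used for counting).
Cxcl1, chr5:90890995-90891294, plus strand: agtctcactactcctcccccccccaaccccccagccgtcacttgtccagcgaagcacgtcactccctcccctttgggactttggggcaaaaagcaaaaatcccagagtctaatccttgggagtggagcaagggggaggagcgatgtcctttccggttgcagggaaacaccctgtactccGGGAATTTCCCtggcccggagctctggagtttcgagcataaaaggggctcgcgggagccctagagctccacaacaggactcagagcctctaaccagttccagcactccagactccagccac
Cxcl2, chr5:90903649-90903948, plus strand: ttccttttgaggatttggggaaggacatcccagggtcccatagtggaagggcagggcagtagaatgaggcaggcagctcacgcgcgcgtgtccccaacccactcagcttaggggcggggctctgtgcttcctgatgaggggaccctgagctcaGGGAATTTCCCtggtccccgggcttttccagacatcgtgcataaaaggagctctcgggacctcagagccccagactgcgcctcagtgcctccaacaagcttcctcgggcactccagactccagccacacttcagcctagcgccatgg
The overlapping matches begin 71 and 70 bases before the start of Cxcl1 and 97 and 96 bases before that of Cxcl2. Of the 46 tested genes of the NF-kB list with a window, 6 held the motif, and 5 of these (Cxcl1, Cxcl2, Cxcl3, Nfkb2 and Nfkbia) were lower under ProteinFx. Over all RefSeq windows the share was 1.47%, and over the genes compared 1.80%. A match describes these letters and does not show binding.

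**Figure D3:**
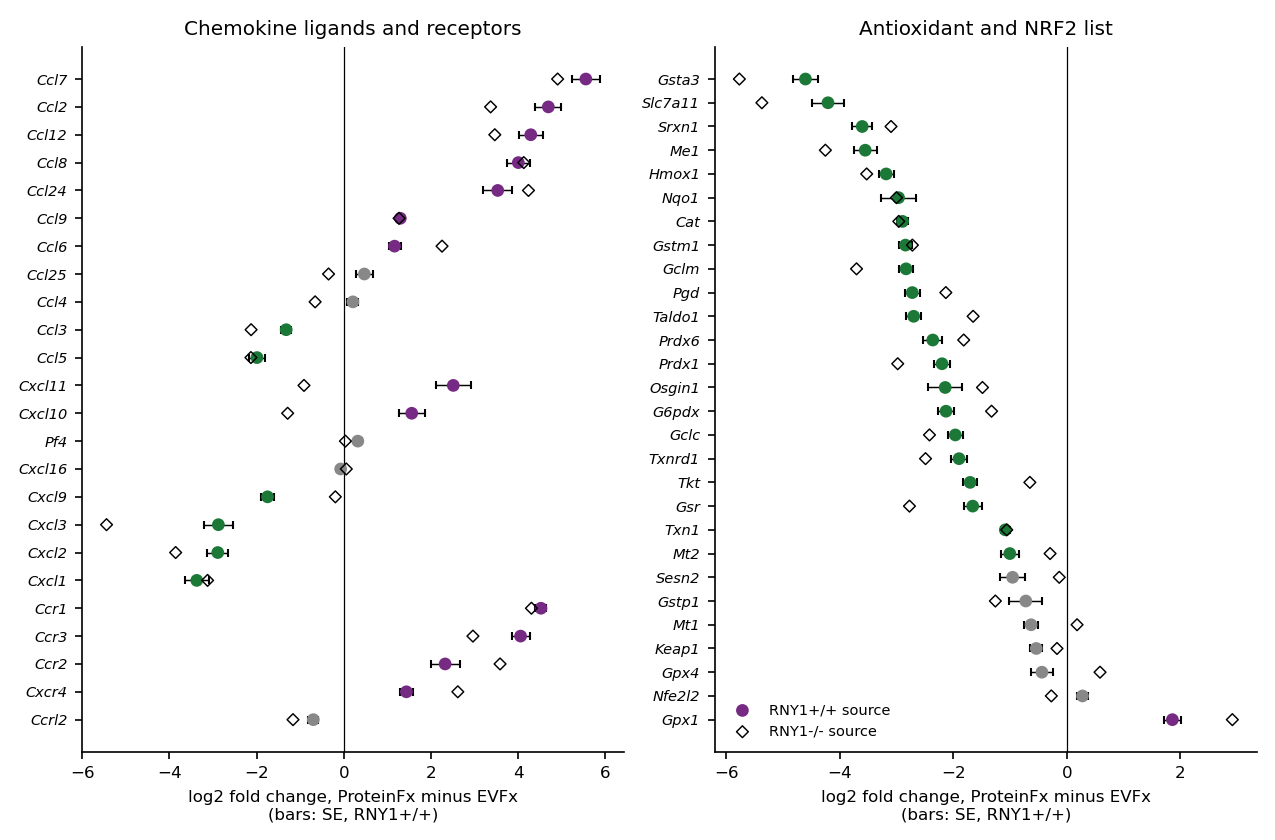
Log2 fold change of ProteinFx minus EVFx for the chemokine ligands and receptors (left) and the antioxidant and NRF2 list (right), for RNY1+/+ source (circles, bars are SE; purple higher, green lower, grey not a DEG) and RNY1-/- source (open diamonds). Ccl7, Ccl2, Ccl12 and Ccl8 lie to the right of 0 and Cxcl1, Cxcl2, Cxcl3 and 26 of the 28 antioxidant genes to the left in RNY1+/+.

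By number of genes the NF-kB inflammatory list leaned towards EVFx. Its summed level did not separate the fractions, at 21900 to 25220 CPM under EVFx and 20040 to 25130 CPM under ProteinFx. Of 61 genes compared 23 were lower and 5 higher under ProteinFx (37.7% and 8.20%, median log2 fold change -0.58, against -0.018 over all genes). With the dependence on GC content and length removed, 18 were lower and 6 higher (456 and 576 of all 10120 genes) and the median was -0.33. The 5 that rose were Ccl7, Ccl2, Ccl12, Edn1 and Cd86, whose products are chemokines, the vasoconstrictor endothelin 1 and a costimulatory ligand of T cells. Il12b, the p40 subunit of IL-12 and IL-23, had 24.9, 17.3, 20.6 and 22.9 CPM under EVFx and 0.574, 0.507, 1.00 and 0.520 under ProteinFx. Its 624 and 12 reads over the groups gave a ratio of 33.9 in favour of EVFx (95% exact interval 19.3 to 66.0). Il12b and the list member Cxcl1 averaged below 3 CPM under ProteinFx. They were compared only through EVFx and could only count as lower. Tnf fell from 159.5 ± 30.4 CPM to 22.6 ± 6.74 CPM (log2 fold change -2.79 ± 0.17), Icam1, an adhesion molecule, from 126 ± 16.2 CPM to 30.7 ± 5.32 CPM (-2.02 ± 0.13), and Ptgs2, the inducible cyclooxygenase, from 58.7 ± 5.00 CPM to 14.4 ± 8.52 CPM (-1.98 ± 0.25). PBS means of Il12b, Tnf, Icam1 and Ptgs2 were lower than under either fraction. Il1b, at 49.6 ± 6.54 CPM and 39.6 ± 31.9 CPM, was no DEG (-0.28 ± 0.34), nor was Il1a (0.58 ± 0.31).

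The type 2 activation genes that could be compared leaned towards ProteinFx. Of 22 genes compared 12 were higher (54.5%) and 1, the kinase gene Plk2, was lower, with a median log2 fold change of 1.06. Besides Arg1, Ccl8 and Ccl24 the risers included Slc7a2, a cationic amino acid transporter that imports arginine, with 5.17, 8.01, 8.81 and 10.3 CPM under EVFx and 85.4, 105, 150 and 234 under ProteinFx (log2 fold change 4.17 ± 0.30). Mrc1, the mannose receptor, was at 54.3 ± 6.47 CPM under EVFx, 598 ± 124 CPM under ProteinFx and 704 ± 177 CPM under PBS (3.46 ± 0.14). Chil3 (1.72 ± 0.20), Pdcd1lg2, which encodes the PD-1 ligand PD-L2 (1.58 ± 0.23) and Tgm2 (1.09 ± 0.11) were also higher. Relative to PBS the members differed, since Arg1, Ccl8 and Slc7a2 were above PBS under ProteinFx while the Mrc1 mean under ProteinFx was below that of PBS and the mean under EVFx was lower still. The list held 40 symbols, and those not compared were below 3 CPM or absent from the table. Retnla, Mgl2, Clec10a, Ccl17, Irf4 and Alox15 were among those below 3 CPM. Arg1 and Ccl24 were below 3 CPM under EVFx, so they were compared only through ProteinFx and could only count as higher.

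Interferon-stimulated genes summed to a higher level under ProteinFx than under EVFx, and to the lowest level under PBS. Summed over the list they made up 4300 to 5113 CPM under PBS, 17820 to 27200 under EVFx and 35480 to 40800 under ProteinFx, with no overlap. Of 87 genes compared 26 were higher (29.9%) and 1 lower (1.15%), with a median log2 fold change of 0.65. Ifit1bl1, of the family that binds foreign RNA ends, had 59.3, 52.4, 19.2 and 21.5 CPM under EVFx and 346, 423, 231 and 369 CPM under ProteinFx (log2 fold change 3.15 ± 0.29). Slfn4, a Schlafen gene of myeloid cells, had 78.8, 88.7, 38.4 and 31.3 CPM and 408, 570.4, 309 and 524 CPM (2.92 ± 0.28). The EVFx libraries of both fell into a higher pair, replicates 1 and 2, and a lower pair, replicates 3 and 4, all below the ProteinFx libraries. The RNY1-/- EVFx libraries split by the same numbers, at 114, 120.2, 45.2 and 65.9 CPM for Slfn4 and 138, 87.1, 18.7 and 45.1 CPM for Ifit1bl1. Under RNY1+/+ EVFx, Ccl7, Ccl2, Ccl12 and Cxcl10 also had replicates 1 and 2 above 3 and 4. Cxcl2 and Slc7a11 had the reverse, with replicates 3 and 4 higher. Iigp1, an immunity-related GTPase, rose from 75.1 ± 33.0 CPM to 344 ± 54.8 CPM (2.18 ± 0.23). Many of these genes lie in families of similar sequence. When only genes with whole counts in all 8 libraries were fitted, 3 of the 22 interferon genes left were higher and 1 lower. Over all 5222 genes of that fit 388 were higher and 384 lower.

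Families within the response did not move evenly. Of 10 guanylate-binding protein genes 5 were higher, from Gbp7 (log2 fold change 1.01 ± 0.14) to Gbp11 (2.25 ± 0.24), while Gbp2 (0.16 ± 0.12) and Gbp5 (-0.31 ± 0.18) were no DEGs. Of 5 IFIT genes Ifit1 and Ifit1bl1 were higher. Among the 7 Schlafen genes Slfn1, Slfn9 and Slfn4 were higher and Slfn2 lower (-1.04 ± 0.28). Over all genes compared 6.71% were higher and 6.82% lower. The 3 CXCR3 ligands, which draw activated T cells, split, with Cxcl10 at 155 ± 84.5 CPM and 459 ± 112 CPM (1.56 ± 0.30), Cxcl11 at 1.02 ± 0.743 CPM and 6.14 ± 2.76 CPM, and Cxcl9 going the other way, from 22.6 ± 4.07 CPM to 6.74 ± 0.692 CPM (-1.75 ± 0.16). Cxcl9 was the only interferon-list DEG that was lower under ProteinFx. Gbp11 and Cxcl11 averaged below 3 CPM under EVFx, so both were compared only through ProteinFx and could only count as higher.

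Windows of Cxcl10 and Ifit1 are shown because both genes differed by source genotype, as described below. Capitals mark the interferon-stimulated response element, GAAA and GAAA with 2 bases between them, on either strand (RefSeq, GRCm38.p6).
Cxcl10, chr5:92348840-92349139, minus strand: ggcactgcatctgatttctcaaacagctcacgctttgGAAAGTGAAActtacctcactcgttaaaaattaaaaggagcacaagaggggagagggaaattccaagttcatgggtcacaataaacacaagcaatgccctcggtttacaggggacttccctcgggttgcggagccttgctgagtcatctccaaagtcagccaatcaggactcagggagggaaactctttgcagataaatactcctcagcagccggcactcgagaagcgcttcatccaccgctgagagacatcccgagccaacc
Ifit1, chr19:34640639-34640938, plus strand: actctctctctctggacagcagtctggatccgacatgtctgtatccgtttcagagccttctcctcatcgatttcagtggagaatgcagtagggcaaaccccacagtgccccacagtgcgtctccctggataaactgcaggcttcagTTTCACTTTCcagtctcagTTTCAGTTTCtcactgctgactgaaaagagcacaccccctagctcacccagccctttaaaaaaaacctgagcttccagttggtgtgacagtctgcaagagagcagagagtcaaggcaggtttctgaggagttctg
The match began 213 bases before the Cxcl10 start, and 104 and 85 bases before that of Ifit1. Of the 66 tested interferon-list genes with a window 36 (54.5%) held it, as did 14 of 20 higher DEGs (70.0%) and 22 of 45 genes that were no DEGs (48.9%), against 3.44% of all windows and 4.15% of the genes compared.

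Surface receptors formed another group higher under ProteinFx. Of 30 scavenger and phagocytic receptors 14 were higher (46.7%) and 4 lower (13.3%), median log2 fold change 0.84. All 4 Fc gamma receptors, which bind immunoglobulin G, were higher, with log2 fold change 1.82 ± 0.16 for Fcgr1, 1.55 ± 0.10 for Fcgr2b, 2.19 ± 0.087 for Fcgr3 and 1.82 ± 0.14 for Fcgr4. Their shared signalling chain gene Fcer1g was not a DEG and lay in the other direction (-0.82 ± 0.10). Olr1, a receptor of oxidised low-density lipoprotein, had 1.16, 1.00, 2.20 and 1.69 CPM under EVFx and 10.5, 10.1, 18.1 and 36.8 CPM under ProteinFx (3.72 ± 0.45). With a mean below 3 CPM under EVFx, Olr1 was compared only through ProteinFx and could only count as higher. Cd300lf (2.76 ± 0.17), Itgam, the integrin chain CD11b (2.21 ± 0.11), the class A scavenger receptor Msr1 (1.77 ± 0.12) and Clec7a, the beta-glucan receptor dectin-1 (1.71 ± 0.18), were higher too.

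The 4 members that were lower under ProteinFx were the receptor genes Clec4n, Marco and Scarb1 and the gene of the Mertk ligand Gas6. Clec4n, the dectin-2 gene, had 152, 148, 167 and 167 CPM under EVFx, 75.4, 77.9, 27.4 and 66.2 under PBS and 7.85, 11.9, 9.30 and 3.99 under ProteinFx (log2 fold change -4.32 ± 0.17). No ProteinFx library reached the lowest PBS library. Marco, a scavenger receptor of alveolar macrophages, had 230.1, 375, 163 and 237 CPM under EVFx, 53.8, 102, 58.8 and 65.6 under ProteinFx and 7.38, 10.7, 5.95 and 6.05 under PBS (-1.85 ± 0.22). Clec4e, the gene of the related lectin Mincle, fell from 3037 ± 232 CPM to 817 ± 289 CPM (-1.89 ± 0.19).

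Of 39 surface receptors and regulators of resting macrophages compared, 15 were higher under ProteinFx (38.5%, against 6.71% of all genes) and 1, Cebpa, lower. By adjusted p alone 21 were higher and 12 lower, against 31.1% and 32.2% of all genes. The purinergic receptor gene P2ry12 was at 1.06 ± 0.450 CPM under EVFx, 6.98 ± 2.39 CPM under PBS and 11.9 ± 2.28 CPM under ProteinFx (log2 fold change 3.41 ± 0.25). Since P2ry12 averaged below 3 CPM under EVFx, it was compared only through ProteinFx and could only count as higher. The transcription factor gene Maf (1.62 ± 0.13), the purinergic receptor gene P2ry14 (2.01 ± 0.13), Il6ra (1.42 ± 0.085) and Tlr4 (1.18 ± 0.086) were higher, as was Il1rn, the IL-1 receptor antagonist (2.03 ± 0.17).

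Of 30 complement, coagulation and protease genes 9 were higher (30.0%) and 2 lower. Mmp13, a collagenase, had 25.6, 27.6, 32.8 and 30.8 CPM under EVFx and 396, 469, 546 and 742 CPM under ProteinFx (log2 fold change 4.21 ± 0.18). Thbs1, thrombospondin 1, rose (2.64 ± 0.18), as did the anaphylatoxin receptor genes C5ar1 (1.46 ± 0.087) and C3ar1 (1.18 ± 0.11) and the serpin gene Serpina3g (2.94 ± 0.19). Procr, the endothelial protein C receptor, fell from 221 ± 49.0 CPM to 29.1 ± 13.5 CPM (-2.89 ± 0.24), and Slpi, an inhibitor of leukocyte proteases, fell too (-3.49 ± 0.28). Serpina3g averaged below 3 CPM under EVFx, and Slpi under ProteinFx, so each could count in 1 direction only. Ctsl was the only DEG among 10 cathepsins (2.31 ± 0.10).

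The cell cycle genes that could be compared were shifted modestly. The list held 54 symbols, and those below 3 CPM, Plk1, Birc5, Ccna2, Cdc20 and Rrm2 among them, were not compared. Of 32 compared 6 were higher (18.8%) and 1 lower, median log2 fold change 0.58. Ccnd1, cyclin D1, had 29.2, 30.1, 19.8 and 19.8 CPM under EVFx, 163, 181, 221 and 159.5 under ProteinFx and 295, 270.5, 256 and 219 under PBS (log2 fold change 2.86 ± 0.14). All EVFx libraries were below both other groups, and ProteinFx overlapped PBS. Ccnd2 (2.00 ± 0.14) and the replication helicase gene Mcm4 (1.11 ± 0.11) were also higher. Cdkn1c, encoding the cyclin-dependent kinase inhibitor p57, had 52.9, 38.3, 110.1 and 68.0 CPM under EVFx, 51.4, 47.9, 80.5 and 64.2 under PBS and 2.49, 1.77, 2.01 and 2.43 under ProteinFx (-4.89 ± 0.37). Cdkn2b, encoding the inhibitor p15, had 25.7, 28.0, 39.6 and 34.0 CPM under EVFx, 3.07, 1.24, 1.14 and 2.13 under PBS and 0.766, 1.27, 0.754 and 1.04 under ProteinFx (-5.02 ± 0.24). The ProteinFx libraries of Cdkn1c were below all PBS libraries, and the EVFx libraries of Cdkn2b above all of them. Cdkn1c and Cdkn2b averaged below 3 CPM under ProteinFx, so both were compared only through EVFx and could only count as lower.

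Of 27 MAPK and immediate-early genes 7 were higher (25.9%) and 5 lower (18.5%), median log2 fold change 0.27. With the trends of GC content and length removed, 7 were higher and 2 lower (576 and 456 of all 10120 genes), median 0.52. The AP-1 subunit gene Fos (log2 fold change 2.62 ± 0.14), Zfp36l1, which promotes mRNA decay (3.28 ± 0.13), and the repressor gene Bhlhe40 (1.52 ± 0.15) rose. The small Maf factor gene Maff (-3.46 ± 0.22), Jund (-1.29 ± 0.11) and Batf (-1.07 ± 0.13) fell. Maff averaged below 3 CPM under ProteinFx, so it was compared only through EVFx and could only count as lower.

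Antioxidant genes made the clearest group higher under EVFx. Of 28 antioxidant and NRF2 genes compared, 21 were lower under ProteinFx (75%) and 1 was higher, and the median log2 fold change was -2.14. Summed over the list they came to 50630 to 66850 CPM under EVFx, 10980 to 14220 under ProteinFx and 12110 to 16140 under PBS. Hmox1, heme oxygenase 1, which degrades heme, had 8177, 7894, 9180 and 9591 CPM under EVFx, 837, 836, 996 and 1154 under ProteinFx and 1125, 1038, 1075 and 1411 under PBS. The log2 fold change of Hmox1 was -3.19 ± 0.13 (SE, adjusted p = 9.42e-11, edgeR). Prdx1, a peroxiredoxin, took up most of the sum, at 39830 ± 5938 CPM under EVFx and 8674 ± 1218 CPM under ProteinFx (log2 fold change -2.20 ± 0.14).

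Slc7a11, the cystine importer, had 136, 168, 264 and 228 CPM under EVFx, 6.89, 6.93, 7.54 and 19.6 under ProteinFx and 3.07, 2.94, 5.95 and 8.36 under PBS (log2 fold change -4.21 ± 0.29). Srxn1, sulfiredoxin, had 255, 250.4, 344 and 411 CPM under EVFx, 24.7, 19.01, 31.9 and 27.4 under ProteinFx and 64.96, 82.0, 60.6 and 84.7 under PBS (-3.61 ± 0.18). Slc7a11 under ProteinFx overlapped PBS, whereas every ProteinFx library of Srxn1 was below every PBS library. Gsta3, a glutathione S-transferase, fell from 66.7 ± 15.4 CPM to 2.69 ± 0.223 CPM (-4.61 ± 0.21). Enzymes of glutathione synthesis (Gclm, -2.83 ± 0.12; Gclc, -1.97 ± 0.13), thioredoxin reduction (Txnrd1, -1.90 ± 0.14) and the pentose phosphate pathway, which supplies NADPH (Pgd, -2.73 ± 0.13), fell with them. Gsta3 averaged below 3 CPM under ProteinFx, so it was compared only through EVFx and could only count as lower. Among genes with whole counts only, 6 of the 8 left in the list were lower and 1 higher (384 and 388 of all 5222 genes). Nfe2l2, which encodes NRF2 itself, was no DEG (0.27 ± 0.091), nor was its inhibitor gene Keap1 (-0.54 ± 0.10). The exception that rose was Gpx1, glutathione peroxidase 1, at 116 ± 8.22 CPM under EVFx, 421 ± 105 CPM under ProteinFx and 566 ± 159.8 CPM under PBS (1.86 ± 0.14).

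Promoter windows of Srxn1, Gclm and Gsta3 are shown because members of the list moved together. Capitals mark the antioxidant response element core, TGACNNNGC or TGAGNNNGC, on either strand (RefSeq, GRCm38.p6).
Srxn1, chr2:152105274-152105573, plus strand: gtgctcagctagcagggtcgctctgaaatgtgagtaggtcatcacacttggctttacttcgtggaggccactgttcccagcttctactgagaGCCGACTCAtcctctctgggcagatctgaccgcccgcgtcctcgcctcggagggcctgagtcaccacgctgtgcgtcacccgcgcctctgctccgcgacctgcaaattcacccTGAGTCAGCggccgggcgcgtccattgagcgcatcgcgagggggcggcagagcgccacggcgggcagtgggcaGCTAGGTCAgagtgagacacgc
Gclm, chr3:122245307-122245606, plus strand: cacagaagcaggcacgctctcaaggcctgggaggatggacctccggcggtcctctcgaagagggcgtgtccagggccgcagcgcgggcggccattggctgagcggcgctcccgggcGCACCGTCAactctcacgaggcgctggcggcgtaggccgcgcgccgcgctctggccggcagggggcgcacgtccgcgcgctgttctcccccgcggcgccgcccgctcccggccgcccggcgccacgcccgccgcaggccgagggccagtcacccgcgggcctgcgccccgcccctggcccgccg
Gsta3, chr1:21240335-21240634, plus strand: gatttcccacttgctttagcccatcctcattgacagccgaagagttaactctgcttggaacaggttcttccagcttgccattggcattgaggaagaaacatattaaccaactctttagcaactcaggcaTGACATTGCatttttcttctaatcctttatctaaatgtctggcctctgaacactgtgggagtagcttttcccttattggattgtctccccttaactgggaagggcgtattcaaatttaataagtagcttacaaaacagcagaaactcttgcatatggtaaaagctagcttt
The core was found 158 and 45 bases before and 28 bases after the start of Srxn1, 134 bases before that of Gclm and 121 bases before that of Gsta3. It was in the windows of 12 of 17 lower DEGs of the list (70.6%) and of 3 of 6 members that were no DEGs (50%), against 36.1% of the genes compared and 27.8% of all windows, and not in that of Gpx1.

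Iron and heme genes followed in part, and this list shares Hmox1 with the antioxidant list. Of 21 compared 7 were lower under ProteinFx (33.3%) and 1, the transferrin receptor gene Tfrc, higher (log2 fold change 1.32 ± 0.13). Spic, a transcription factor of heme-recycling macrophages, had 79.6, 83.8, 73.0 and 84.2 CPM under EVFx, 7.53, 4.82, 3.85 and 6.88 under ProteinFx and 6.56, 5.36, 3.20 and 4.51 under PBS (-3.75 ± 0.15). Slc40a1, the iron exporter ferroportin, had 174, 164, 168 and 158 CPM under EVFx, 12.2, 17.7, 10.3 and 10.1 under ProteinFx and 305, 281, 366 and 341 under PBS (-3.74 ± 0.13). For Spic the ProteinFx libraries overlapped PBS, and for Slc40a1 they were the lowest of the 3 groups without overlap. The heme transporter gene Slc48a1 (-2.64 ± 0.13) and Blvrb, biliverdin reductase B (-2.40 ± 0.086), fell. Ftl1, the ferritin light chain, fell as well (-2.23 ± 0.17), although reads may be shared with its pseudogene copies, while the heavy chain gene Fth1 was no DEG (-0.30 ± 0.11).

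Transcripts of sterol synthesis genes leaned towards EVFx. Of 24 cholesterol synthesis and uptake genes 12 were lower under ProteinFx (50%) and 0 higher. By adjusted p alone 20 were lower and 0 higher, against 32.2% and 31.1% of all genes, and the median log2 fold change was -0.93. Mvd had 27.4, 25.8, 27.6 and 36.1 CPM under EVFx, 7.08, 4.56, 6.28 and 4.86 under ProteinFx and 3.69, 4.79, 2.52 and 4.27 under PBS (log2 fold change -2.35 ± 0.16). Its ProteinFx and PBS libraries overlapped, and both were below EVFx. Fdps, farnesyl diphosphate synthase (-1.36 ± 0.10), and Fdft1, squalene synthase (-1.46 ± 0.14), fell too. With the dependence on GC content and length removed (as described further on), 7 were lower (456 of all 10120 genes) and the median was -0.68.

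Of 30 lipid-handling genes 5 were lower (16.7%) and 1 higher (3.33%), against 6.82% and 6.71% of all genes. The fatty acid desaturase gene Scd1 (log2 fold change -2.38 ± 0.17), Fasn (-1.53 ± 0.15) and the lysosomal lipase gene Lipa (-1.39 ± 0.11) fell, while Abca1 (0.91 ± 0.088) and Abcg1 (0.77 ± 0.091), the cholesterol exporters, were below the fold limit. Of 37 unfolded protein and integrated stress response genes 6 were lower (16.2%) and 0 higher. By adjusted p alone 23 were lower and 5 higher, against 32.2% and 31.1% of all genes. Of 22 p53 targets 5 were lower (22.7%) and 1 higher (4.55%). By adjusted p alone 10 were lower and 7 higher, against the same 32.2% and 31.1% of all genes. The median log2 fold change of these targets, -0.28, became -0.092 with the trends of GC content and length removed. Gdf15, a stress-induced cytokine, fell from 312 ± 51.0 CPM to 26.2 ± 6.15 CPM (-3.59 ± 0.15), Ppp1r15a, a phosphatase subunit that restarts translation, from 52.49 ± 9.59 CPM to 11.5 ± 1.58 CPM (-2.17 ± 0.15), and Nupr1 fell too (-1.41 ± 0.15). Among 46 lysosomal genes 3 were higher (6.52%) and 2 lower (4.35%). The autophagy receptor gene Sqstm1 had 1075, 1070, 1158 and 1412 CPM under EVFx and 125, 104, 135 and 112 CPM under ProteinFx (-3.31 ± 0.12). Panx1, a channel that releases ATP, had 63.5, 57.0, 60.5 and 75.8 CPM under EVFx, 21.3, 21.5, 12.1 and 22.1 under PBS and 3.83, 5.07, 5.78 and 2.43 under ProteinFx (-3.96 ± 0.17). Of 11 MHC class II presentation genes Cd86 alone was a DEG (1.88 ± 0.12).

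**Figure D4:**
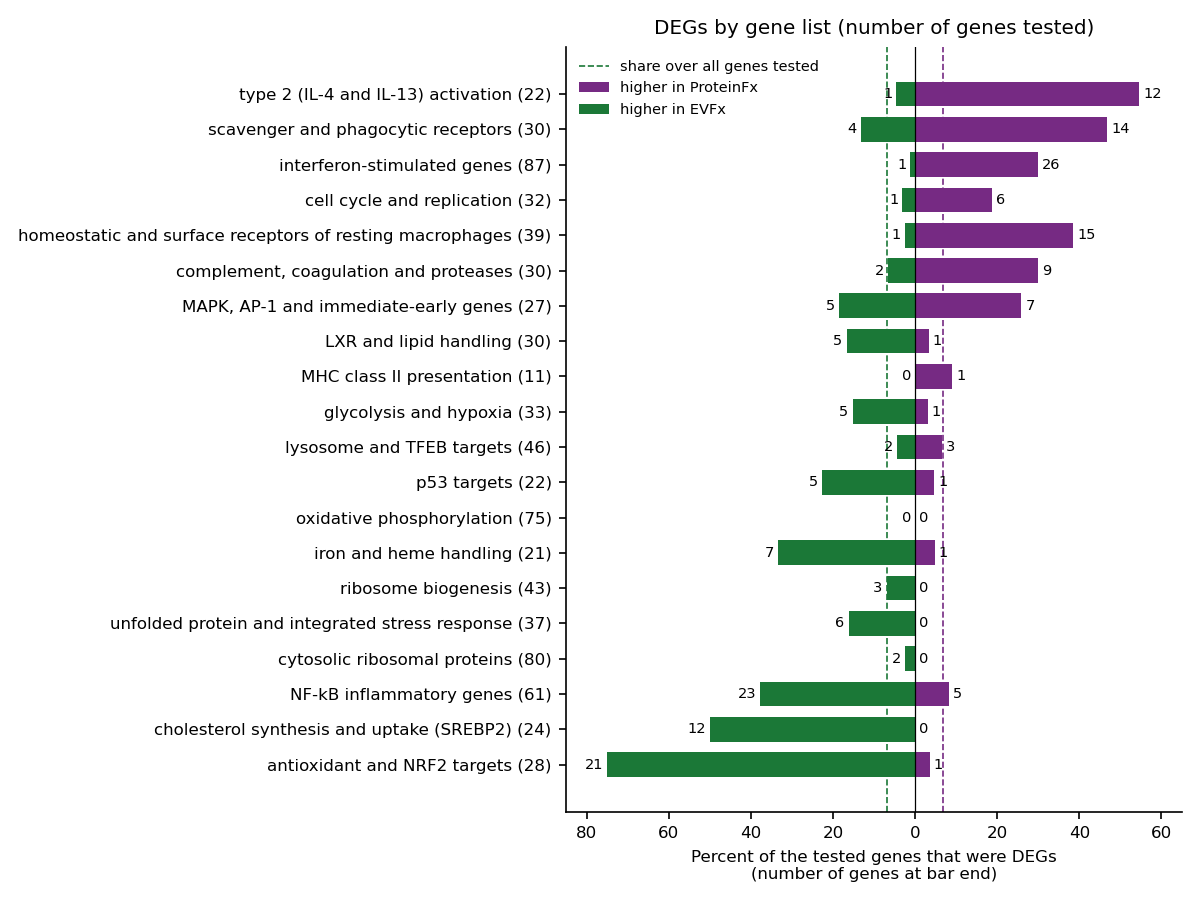
Percent of the tested genes of each list that were DEGs, higher under ProteinFx to the right (purple) and higher under EVFx to the left (green), with the numbers of genes at the bar ends and in brackets the number tested. Dashed lines give the share over all genes tested (6.71% and 6.82%). The antioxidant list reaches 75% to the left and the type 2 list 54.5% to the right.

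A broad trend with base composition ran through the comparison. Over 10120 genes with a known transcript (GENCODE M21, GRCm38), the log2 fold change fell with GC content (Spearman's rho -0.476; genes do not count as independent replicates) and rose weakly with transcript length (rho 0.215). The median log2 fold change was 0.51 in the lowest of 10 GC bins (400 genes, median GC 38.7%) and -0.59 in the highest (259 genes, 61.2%). Higher DEGs had a median GC content of 46.4%, lower DEGs 54.5% and all genes 49.7%. In the RNY1-/- libraries the same comparison gave a rho of 0.077. The gap between the median log2 CPM of genes at 55% GC or more and of those below 45% was -1.29 to -0.84 in the RNY1+/+ EVFx libraries and between -1.94 and -1.68 in the RNY1+/+ ProteinFx and RNY1-/- EVFx libraries. It ran from -1.65 to -0.48 in the PBS libraries and from -2.19 to -1.40 in the RNY1-/- ProteinFx libraries, so libraries within 1 group also differed.

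Of 80 cytosolic ribosomal protein genes 72 were lower by adjusted p, against 32.2% of all genes. Rplp0 (log2 fold change -1.01 ± 0.11) and Rpl29 (-1.03 ± 0.16) alone were DEGs, and the list median was -0.56. With the trends removed 55 were lower by adjusted p, none of the 80 was a DEG, and the median was -0.36. In that fit 5535 of all 10120 genes passed adjusted p in either direction. In RNY1-/- the median of the ribosomal protein list was 0.054. Of 75 oxidative phosphorylation genes 44 were lower by adjusted p, against 32.2% of all genes, and 0 were DEGs. Their median of -0.29 became -0.082 without the trends. Of 33 glycolysis and hypoxia genes 1 was higher and 5 were lower. Without the trends this balance turned to 4 higher and 2 lower (576 and 456 of all 10120 genes). They included Aldoa (-1.59 ± 0.12), Gapdh (-1.11 ± 0.14) and Pkm (-1.03 ± 0.095), and of these Aldoa alone stayed past the fold limit without the trends (-1.05). Of 43 ribosome biogenesis genes 3 were lower (6.98%, against 6.82% of all genes), Noc2l among them (-1.01 ± 0.11). Their median was -0.44, or -0.33 without the trends. The antioxidant median was -1.99 without the trends, with 20 lower DEGs, and that of type 2 genes 1.19, with 12 higher.

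In the fit without the trends 576 of all 10120 genes were higher and 456 lower DEGs. Without the trends 14 of the 87 interferon genes were higher and the median was 0.49, against 26 and 0.65 with them. By adjusted p alone 63 were higher and 6 lower, against 57 and 9. With the trends left in, 31.1% of all genes were higher and 32.2% lower by adjusted p. Of the named interferon genes Ifit1 lost its call (0.71). Outside this list Mcm4 (0.79), Tfrc (0.99), Jund (-0.80), Batf (-0.58), Cebpa (-0.56) and Noc2l (-0.69) also fell below the fold limit without the trends.

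**Figure D5:**
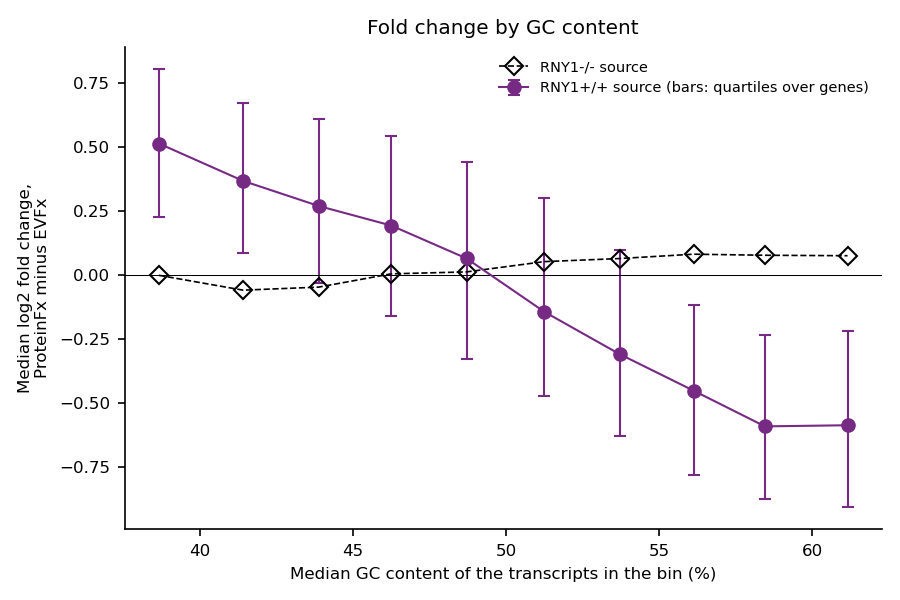
Median log2 fold change of ProteinFx minus EVFx in 10 bins of transcript GC content (x axis, percent), for RNY1+/+ source (circles, bars are quartiles over genes) and RNY1-/- source (open diamonds). The median falls from 0.51 to -0.59 in RNY1+/+ and lies between -0.058 and 0.082 in RNY1-/-.

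The same comparison in RNY1-/- source used other libraries. There 484 genes were higher (4.63%) and 443 lower (4.24%) under ProteinFx. Across the 10443 genes the log2 fold changes of the genotypes correlated (Pearson's r 0.66, Spearman's rho 0.431, a description across genes). Of the 701 higher DEGs in RNY1+/+ 637 had the same sign and 314 were DEGs in RNY1-/-, and of the 712 lower DEGs 596 and 267. The difference between the genotypes, tested as an interaction over 16 libraries, passed an adjusted p of 0.05 for 3477 genes (33.3%), 638 of them DEGs of the RNY1+/+ comparison. Antioxidant genes had a median of -1.98 in RNY1-/-, with 20 of 28 lower, and type 2 genes 1.36, with 13 of 22 higher. The NF-kB list had a median of -1.34, with 36 of 61 lower and 3 higher.

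For 40 of the 87 interferon-stimulated genes the fraction difference depended on source genotype by the interaction test, as it did for 33.3% of all genes. The list's median in RNY1-/- was 0.084, with 5 higher and 2 lower. Without the GC and length trends the interaction passed for 38 of the 87. Cxcl10 had 246, 207, 73.3 and 93.6 CPM under RNY1+/+ EVFx and 430.1, 581, 318 and 506 under RNY1+/+ ProteinFx, against 261, 245, 128 and 194 under RNY1-/- EVFx and 66.7, 71.2, 136 and 109 under RNY1-/- ProteinFx. The log2 fold change of Cxcl10 was 1.56 ± 0.30 (SE) in RNY1+/+ and -1.29 ± 0.34 in RNY1-/- (interaction adjusted p = 0.0016, edgeR). The fraction difference therefore had opposite signs. Ifit1 (-0.64 in RNY1-/-, interaction adjusted p = 0.00379), Mx1 (-0.26 in RNY1-/-, interaction adjusted p = 0.00933), Slfn4 (0.62 in RNY1-/-, interaction adjusted p = 0.004) and Ifit1bl1 (0.81 in RNY1-/-, interaction adjusted p = 0.00775) also differed, each with a higher log2 fold change in RNY1+/+ source. Neither Ifit1 nor Mx1 passed an adjusted p of 0.05 within RNY1-/- (0.051 and 0.376), and Mx1 was below the fold limit in RNY1+/+ (log2 fold change 0.89 ± 0.16). Edn1 had 6.21, 5.38, 4.21 and 3.75 and 20.5, 31.4, 20.1 and 44.4 CPM in RNY1+/+, and 1.71, 3.13, 3.45 and 4.04 and 3.40, 2.38, 5.98 and 3.89 CPM in RNY1-/- (0.078 in RNY1-/-, interaction adjusted p = 0.00362). The 2 RNY1+/+ groups of Edn1 did not overlap, and the RNY1-/- groups did. Olr1 (0.93 in RNY1-/-, interaction adjusted p = 0.022) and Mmp13 (2.56 in RNY1-/-, interaction adjusted p = 0.00264) also had higher log2 fold changes in RNY1+/+. Clec4n fell more in RNY1+/+ (-2.81 in RNY1-/-, interaction adjusted p = 0.00341). For Arg1 (9.29 in RNY1-/-, interaction adjusted p = 0.648), Hmox1 (-3.53 in RNY1-/-, interaction adjusted p = 0.103), Ccl7 (4.91 in RNY1-/-, interaction adjusted p = 0.235) and Il12b (-5.94 in RNY1-/-, interaction adjusted p = 0.434) the interaction did not pass. With the GC and length trends removed it passed for Hmox1 (difference 0.83, adjusted p = 0.0089).

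The genes the study used to normalize its qPCR, Rab14, Arpc2 and Cltc, differed little between the fractions. The study picked them from these sequencing data for small changes of RNY1+/+ ProteinFx against PBS and against RNY1-/- ProteinFx. Their small differences here are therefore partly a result of that selection. Rab14 (log2 fold change 0.013 ± 0.075) and Arpc2 (0.045 ± 0.084) overlapped between the groups, and their signs turned under scaling to these genes. Cltc, clathrin heavy chain, passed adjusted p alone (0.0268, edgeR) without overlap of the groups but was no DEG (0.25 ± 0.091). Its log2 fold change turned to -0.14 with the GC and length trends removed. Scaling to these 3 genes shifted the median of all genes from -0.018 to -0.11 and gave 566 higher and 927 lower DEGs (37.9% higher, against 49.6%). Ro60, which binds Y RNAs, was at 18.4 ± 0.737 CPM and 24.7 ± 1.47 CPM (0.42 ± 0.10, or -0.18 without the trends). Rny1 and Rny3, small RNAs that a polyA-primed library does not target, had 4.50 and 3 counts in all over the 4 EVFx libraries and 0.50 and 2 over the ProteinFx libraries (fractions are shared reads), too few to compare.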

How the data were processed

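RNA was profiled by 3′-end polyA sequencing with unique molecular identifiers. As given by the labels and the study's methods, reads were checked with FastQC (0.12.1), trimmed with fastp (0.24.0), aligned to GRCm39 with STAR (2.7.11), sorted with SAMtools (1.22.1) and deduplicated, and assigned to exons and 3′ UTRs by strand with featureCounts of Subread (2.1.1). The deposited estimated counts are fractional where a read mapped to several genes. The authors also deposited CPM per library, which are the levels given in the text.

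For testing, counts were rounded to whole numbers. Genes averaging 3 CPM or more in the 8 libraries were fitted with edgeR (4.0.16, R 4.3.3), TMM scaling and the quasi-likelihood test. A gene averaging below 3 CPM under 1 fraction was compared only through the other, and could only count as higher there. A DEG had an adjusted p (Benjamini-Hochberg) below 0.05 and an absolute log2 fold change above 1. Errors of log2 fold changes are SE, and levels are given as mean ± SD over 4 libraries. The interaction with source genotype was fitted over 16 libraries. Scripts were tested on simulated data.

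The 20 gene lists, the marker lists and the comparison itself were chosen with earlier results of these data known. Some genes, such as Hmox1, Slc7a11, Plk2, Tfrc and Cd86, are in several lists and count in each. Named genes were the 8 largest rises and falls (averaging 10 CPM or more, no overlap), up to 3 DEGs per list and direction, and the study's reference genes. Gene families and other list members named in the text were chosen after their values were seen. GC content and length came from GENCODE M21 by gene identifier, with a value for 10120 genes (96.9%). Promoter windows came from RefSeq (GRCm38.p6), which held 7441 of the genes compared. A total of 3 counts corresponded to 0.362 to 0.760 CPM, the depth limit of a single library. Intervals cover counting error only. Alternatives were DESeq2 (1.42.0), limma-voom (3.58.1), other scalings and filters, thinned counts, removal of GC and length trends, and leaving out each library. Values of 5 genes are not reported here.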

Additional observations from a re-analysis of the deposited data

Results flagged for a closer look

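Among 82 named genes, 35 differed between RNY1+/+ and RNY1-/- source in their response to ProteinFx against EVFx by the interaction test (edgeR quasi-likelihood, adjusted p below 0.05 over all genes, against 33.3% of all genes). The values are RNY1+/+ minus RNY1-/- log2 fold changes. The 20 above 0 were Cxcl10 (2.86), Olr1 (2.79), Edn1 (2.503), Ifit1bl1 (2.34), Slfn4 (2.31), Ifit1 (1.72), Mmp13 (1.66), Procr (1.41), Ccl2 (1.33), Thbs1 (1.28), Mx1 (1.15), Scd1 (1.15), Spic (1.11), Tmem26 (1.08), Cd86 (1.01), Gatm (0.97), Batf (0.72), Ccnd1 (0.68), Itgam (0.57) and Ctsl (0.55). The 15 below 0 were Cebpa (-1.72), Gapdh (-1.57), Rpl29 (-1.55), Cxcl9 (-1.55), Clec4n (-1.49), Aldoa (-1.30), Rplp0 (-1.18), Gpx1 (-1.05), Pkm (-0.97), Nupr1 (-0.80), Jund (-0.79), Noc2l (-0.77), Scarb1 (-0.72), Bax (-0.71) and Sqstm1 (-0.52). For 7 of the 35 the sign in RNY1-/- was opposite, and 2 of these 7, Cxcl10 and Cebpa, passed an adjusted p of 0.05 within RNY1-/-. With GC and length trends removed 28 of the 35 passed the same threshold.

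In 8 of 164 groups of 4 libraries, 1 library stood apart from the other three by Dixon's criterion, which chance passes in about 1 of 20 groups. Under ProteinFx, replicate 4 was high for Cxcl2 (110.7 CPM against 50.7 to 60.6), Slc7a11 (19.6 against 6.89 to 7.54) and Htr2b (47.54 against 31.9 to 34.4), and replicate 3 for Ccnd2 (45.2 against 32.5 to 34.0) and Il12b (1.00 against 0.507 to 0.574). Under EVFx, replicate 4 was high for Pkm (388.9 CPM against 300.7 to 308.1) and Rplp0 (405.2 against 308.9 to 322.1), and replicate 2 was low for Atp6v0d2 (41.9 against 57.1 to 58.0).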

How the results depend on the processing

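The count of 1413 DEGs and of 6608 genes by adjusted p stayed within 1.5 times under DESeq2 (1409 and 6134), total-count scaling, limma-voom, thinned counts, a fit to all 20 libraries and the removal of GC and length trends (1032 and 5535, with 834 of 1350 DEGs shared). The number of DEGs was 2563 with no filter on low counts (27913 genes tested), 474 above a log2 fold change of 1.5 and 551 by a test against a fold limit of 1. It was 772, with 3226 by adjusted p, in the 5222 genes with whole counts only, where fewer genes were tested. Leaving out single libraries gave 1197 to 1540 DEGs, 6008 to 6548 genes by adjusted p and 1932 to 4652 interaction genes (against 3477), with 2297 without RNY1+/+ EVFx replicate 4, 2158 without RNY1-/- ProteinFx replicate 1 and 1932 without RNY1-/- ProteinFx replicate 2. The interaction count was 2419 without the GC and length trends.

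Of 77 named DEGs, 13 lost their call without the trends (Batf, Bax, Cebpa, Gapdh, Ifit1, Jund, Mcm4, Noc2l, Pkm, Rpl29, Rplp0, Sesn1 and Tfrc). Near the fold limit, leaving out 1 library ended the call of Cebpa, Gapdh, Noc2l, Pkm, Rpl29 and Rplp0 (EVFx replicate 4), Ifit1 and Lgmn (EVFx replicate 3) and Batf (EVFx replicate 2), and of Ifit1, Lgmn, Noc2l, Pdk1, Rpl29 and Rplp0 for 1 or more ProteinFx libraries. DESeq2 ended the calls of Noc2l (-0.997) and Rplp0 (-0.992), reference-gene scaling those of Ifit1 (0.99), Sesn1 (0.97) and Lgmn (0.92), thinned counts those of Rpl29 and Rplp0, and no filter that of Lgmn. With whole-count genes only, 14 of 35 NF-kB and 6 of 13 cholesterol genes were lower and 7 of 16 scavenger receptors higher. Over all 5222 genes of that fit 384 were lower and 388 higher. Signs turned for genes close to 0. Rab14 (0.034 at most with a library left out) was -0.081 under scaling to the study's reference genes, -0.17 without the trends (-0.17 with the block too), -0.026 without a filter, -0.0012 without EVFx replicate 4 and -0.0055 without ProteinFx replicate 3. Arpc2 was -0.051 under reference-gene scaling, Cltc -0.14 without the trends (-0.15 with the block) and Ro60 -0.18 in both. The cause was not tested.

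Replicate numbers do not mark a known pairing. Deviations of same-numbered RNY1+/+ EVFx and ProteinFx libraries correlated at -0.082 to 0.23, and 1 of 4 EVFx libraries correlated best with its own number. The range was -0.15 to 0.31 between the EVFx groups and -0.29 to 0.21 between the ProteinFx groups of both genotypes, but 0.205 to 0.405 between the RNY1-/- fractions. A replicate block gave 1430 DEGs, 6584 genes by adjusted p and 3497 interaction genes (3298 shared with the unblocked fit; Ccl2, adjusted p = 0.051, and Sqstm1, 0.065, no longer passed), or 1041 DEGs and 5563 genes by adjusted p with the trends removed as well.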
